A study of Mus musculus with 6 samples.

Results

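The clustered protocadherins are cell surface proteins of the cadherin superfamily, encoded by the alpha, beta and gamma gene clusters that lie side by side on mouse chromosome 18. Members were all protein-coding genes whose GENCODE symbol follows the naming of these clusters, which gave 57 of 54115 genes, with 14 in the alpha, 22 in the beta and 21 in the gamma cluster. *Pcdhgb8* matched the naming, but is annotated as a polymorphic pseudogene and was not counted. RNA-sequencing had been performed on satellite cells, from which skeletal muscle is renewed, of C57BL/6J mice 6 to 8 weeks old. They had been sorted from uninjured hindlimb muscle for α7-INTEGRIN and CD34, without CD45, SCA-1, CD11b or CD31. The study compared 3 Pax7WT samples with 3 Pax7KR samples, in which both copies of *Pax7* encode arginine in place of a lysine at which the satellite cell transcription factor PAX7 is acetylated. The KR allele was made with Cas9 in zygotes, and no transgene or Cre is part of either group. The paper speaks of biological samples for RNA-sequencing and of at least 3 biological replicates in its experiments. The labels name the samples as replicates without tying them to single animals. The p-values thus measure the spread between these samples, which may in part be technical.

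Each alpha and gamma gene contributes a variable first exon, with a promoter of its own, that is spliced to constant exons shared by the whole cluster, whereas beta genes lack such constant exons. The variable exon encodes the extracellular cadherin repeats, the transmembrane segment and part of the cytoplasmic tail, and proteins of like isoform bind each other on opposing cells. They are known mainly from neurons, where promoter choice by CTCF and cohesin gives cells different sets of isoforms, used in self-recognition, survival and dendrite and synapse formation. The genes at the end of the alpha and gamma clusters, *Pcdhac1*, *Pcdhac2*, *Pcdhgc3*, *Pcdhgc4* and *Pcdhgc5*, form the C type, which differs in sequence and regulation from the alternate isoforms. The study set out to learn how acetylation of PAX7 acts in satellite cells, and the comparison of the genotypes asks here whether this family of adhesion molecules is expressed at different levels.

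The structure of the clusters sets what can be measured. On build GRCm38, the alpha members lie at chr18:36930184-37187661, the beta members at chr18:37264938-37524479 and the gamma members at chr18:37661793-37841873, all on the plus strand. The longest transcript of every alpha and gamma member has 4 exons, of which the constant part takes 2860 bases in the alpha and 2116 to 2119 bases in the gamma cluster. The longest transcript of every beta member has a single exon and 0 constant bases, although some, such as *Pcdhb6*, also have an annotated transcript of 2 exons. Of the 31-base sequences in a member's transcripts, the percentage that also occurs in other genes had a median of 63.5% (45.5% to 90.7%) for alpha, 46.1% (33.0% to 67.5%) for gamma and 11.8% (0% to 22.5%) for beta members. Over the first exon alone, the median was 21.6% for alpha and 3.89% for gamma members, and it was 0% for all 5 C-type genes. A read from a constant exon cannot be traced to its first exon except through its mate or through the estimate that salmon makes, so the reads given for alpha and gamma members are estimates. Estimated reads were within 0.0005 of a whole number in all libraries for 13 beta members (1 of them, *Pcdhb1*, with 1 read in total), against 0 gamma members.

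The 6 libraries held 17716860 to 27742464 estimated reads, and member genes took 0.0963% to 0.103% of them. The marker genes of satellite cells summed to between 8823 and 9640 CPM (estimated counts scaled to a common library size) in Pax7WT and between 9319 and 9622 CPM in Pax7KR libraries, with none of the 12 at 0 reads, and *Pax7* was at 542 ± 35.4 TPM (a level scaled for transcript length and depth; mean ± SD over the 6 libraries). Of 10 neuronal markers, 6 (*Snap25*, *Syt1*, *Elavl4*, *Nefl*, *Gap43* and *Slc17a6*) were at 0 reads in every library, and the list summed to between 1.98 and 3.31 CPM in Pax7WT and between 2.75 and 3.10 CPM in Pax7KR libraries. Schwann and glial markers, none of which was at 0, summed to 114 to 154 CPM in Pax7WT and 92.1 to 133 CPM in Pax7KR libraries. Smooth muscle and pericyte markers summed to 2420 to 2779 CPM in Pax7WT and 2275 to 2487 CPM in Pax7KR libraries, mostly from *Notch3* (2052 to 2474 CPM). Fibro-adipogenic markers summed to 1921 to 2080 CPM, mostly from *Col3a1* and *Dpt*. Endothelial markers summed to 286 to 364 CPM in Pax7WT and 317 to 413 CPM in Pax7KR libraries, mostly from *Tek* (184 to 231 CPM). Immune, tenocyte and myofibre markers reached at most 17.1, 81.5 and 60.7 CPM. Which cells carried the member RNA was not tested. The Pax7KR replicate 2 library stood apart in 4 Y-linked genes (*Ddx3y*, *Kdm5d*, *Eif2s3y* and *Uty*), which summed to 131 CPM there against 299 to 355 CPM in the other 5 libraries. These genes were chosen after their values were seen. Results that change without this library are given with both values. In bulk RNA, fewer cells that express a gene and less of its RNA per cell cannot be told apart.

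The sorted satellite cell samples held RNA of most of the beta and gamma cluster and of almost none of the alpha cluster. Of the 57 members, 43 had more than 3 reads in every library. These were all 21 gamma members, all beta members except *Pcdhb1*, and 1 alpha member, *Pcdhac2*. *Pcdha2*, *Pcdha6* and *Pcdha12* had 0 reads in all 6 libraries, which allows a level of up to 0.0225 CPM over the pooled 6 libraries (3 reads, counting error only). TPM, which allows for transcript length, summed to 2.22 ± 0.573 for the alpha, 99.9 ± 5.35 for the beta and 285 ± 9.06 for the gamma cluster (SD, n = 6).

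A single C-type gene, *Pcdhgc3* (ENSMUSG00000102918), led the family. The protein it encodes is known to bind Axin1 and to restrain Wnt signalling. Its level was 172, 172 and 155 TPM in the 3 Pax7WT libraries and 164, 164 and 170 TPM in the 3 Pax7KR libraries. All 6 libraries thus lay close together, and the Pax7KR values fell inside the range of the Pax7WT values. With a mean of 166 ± 6.82 TPM it stood at rank 695 of all 54115 genes, above 95.9% of the 17152 genes that passed the filter of at least 5 reads in at least 2 libraries. It made up 43.0% of the summed TPM of all members. By reads, it held between 57.2% and 60.01% of the gamma cluster and between 43.6% and 47.0% of all members.

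**Figure D1:**
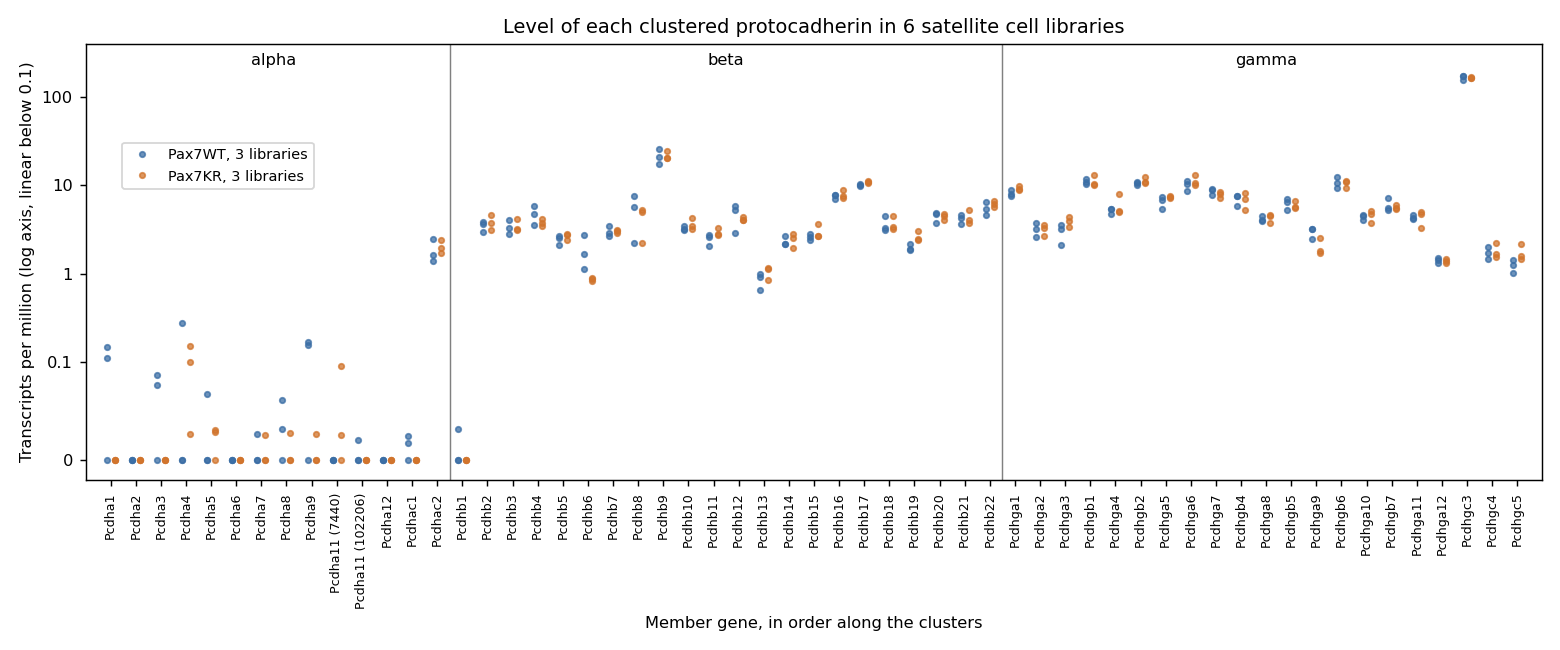
TPM (log axis, linear below 0.1) of each of the 57 members in order along the clusters, with a point for each of the 3 Pax7WT (blue) and 3 Pax7KR (orange) libraries. The numbers beside *Pcdha11* are the last digits of the identifiers of the 2 genes of that name. *Pcdhgc3* stands above all other members, *Pcdhac2* is the only alpha member near the level of the beta and gamma members, and blue and orange points overlap in height for most genes.

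The next member in the order was a beta gene, *Pcdhb9* (ENSMUSG00000051242), at 21.6 ± 3.07 TPM (SD, n = 6). *Pcdhgc3* was 7.71 times higher than *Pcdhb9*, and *Pcdhb9* was 1.95 times higher than the third member, *Pcdhgb1* (11.1 ± 1.16 TPM), both in 6 of 6 libraries. Below *Pcdhb9*, the genes *Pcdhgb1*, *Pcdhgb2* (10.95 TPM), *Pcdhga6* (10.7 TPM), *Pcdhgb6* (10.6 TPM) and *Pcdhb17* (10.5 TPM) did not differ beyond their spread from one to the next within this group. *Pcdhga1* followed at 8.73 ± 0.820 TPM, below *Pcdhb17* in 6 of 6 libraries. The remaining gamma A and gamma B genes ran down to 1.40 TPM, reached by *Pcdhga12*, which falls outside the rule for named genes and was chosen after its values were seen. Among all gamma A genes the median was 4.40 TPM (n = 12), and among gamma B genes it was 8.78 TPM (n = 6).

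The other C-type genes were far lower than *Pcdhgc3*. *Pcdhac2* (ENSMUSG00000102697), known for its role in the spacing of serotonergic axons, was at 1.92 ± 0.430 TPM (SD, n = 6), *Pcdhgc4*, known for neuronal survival, at 1.77 ± 0.283 TPM and *Pcdhgc5* at 1.48 ± 0.383 TPM. *Pcdhac1* had between 0 and 1.67 reads per library. *Pcdhac2* nevertheless held between 80.8% and 95.2% of the reads of the alpha cluster. The 12 alternate alpha genes had at most 18.0 estimated reads in any library, and only *Pcdha1*, *Pcdha4* and *Pcdha9* passed the filter.

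Make-up by library was even. Beta genes held 21.0% to 24.1% of the member reads, gamma A genes 16.6% to 17.9%, gamma B genes 13.5% to 14.2%, and alpha genes 0.535% to 1.01%. The order of these classes was the same in all 6 libraries. Between libraries, the coefficient of variation of the CPM of a member had a median of 13.5% over the 46 members that passed the filter. Counting alone would give 6.82% for these. *Pcdhgc3* and *Pcdhb17* were the steadiest of the named members, at 5.46% and 2.40%, and *Pcdhb6* varied by 45.0%.

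**Figure D2:**
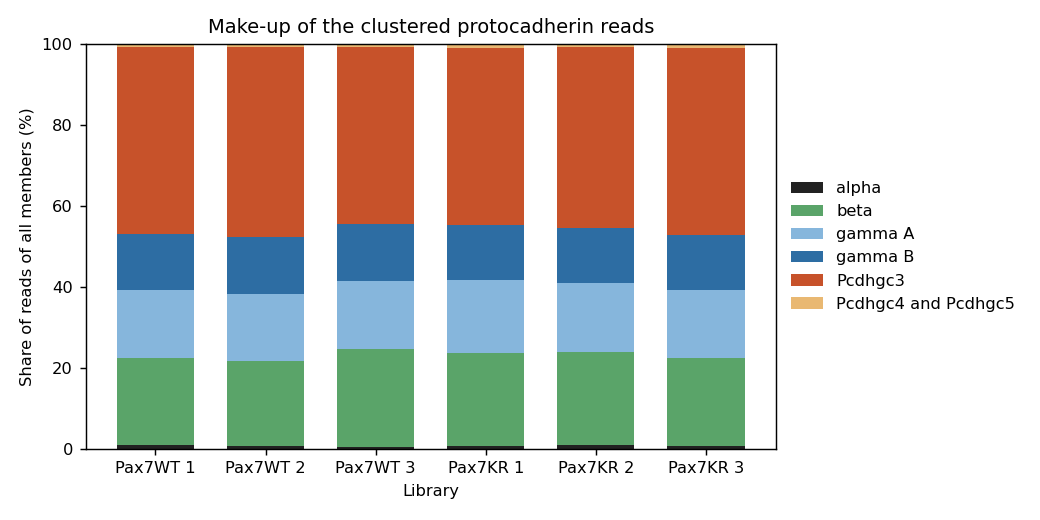
Share of the estimated reads of all members (percent, stacked to 100) that each class held in each of the 6 libraries. *Pcdhgc3* alone takes 43.6% to 47.0%, the beta genes 21.0% to 24.1%, and the 6 columns are nearly alike.

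The summed level of each cluster was then compared between the genotypes, because a sum does not depend on how shared reads are divided among its members. It still depends on how reads are divided between members and other genes that share sequence, such as *Pcdhgb8* in the gamma cluster. The gamma cluster was at 801, 809 and 735 CPM in Pax7WT and at 757, 746 and 782 CPM in Pax7KR libraries. The beta cluster was at 222, 217 and 235 CPM in Pax7WT and at 228, 226 and 219 CPM in Pax7KR libraries. The alpha cluster was at 10.5, 6.94 and 5.21 CPM in Pax7WT and at 6.995, 8.25 and 6.29 CPM in the Pax7KR libraries. In each cluster the 2 groups overlapped. The exact permutation test (two-sided, 3 against 3, smallest possible p 0.1) gave p = 0.5 for gamma, p = 1 for beta and p = 1 for alpha, and an adjusted p of 1 for each over the 5 sums tested, with the C-type genes (p = 0.6) and the gamma A and gamma B genes (p = 0.5) as the other two sums. With the clusters entered as sums in edgeR, a fit added after seeing the data, the log2 fold change of Pax7KR over Pax7WT was -0.04 for gamma (95% interval -0.18 to 0.10), -0.0015 for beta (-0.13 to 0.13) and -0.08 for alpha (-0.59 to 0.44). The intervals thus reached no further than 0.18 from 0 for the beta and gamma sums, and up to 0.59 for the alpha sum. Signs that lie this close to 0 were not stable, and all of the 5 sums were slightly positive when TPM replaced reads.

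The share that the leading gene held of its cluster was compared in the same way. *Pcdhgc3* held 59.1% ± 1.02 of the gamma reads in Pax7WT and 58.3% ± 1.07 in Pax7KR satellite cells (SD, n = 3 each; exact permutation test, p = 0.4, adjusted p = 0.6). *Pcdhb9* held 16.9% ± 2.57 and 16.8% ± 1.495 of the beta reads (exact permutation test, n = 3 each, p = 0.9, adjusted p = 0.9). *Pcdhac2* held 80.8%, 81.2% and 92.1% of the alpha reads in Pax7WT and 91.8%, 95.2% and 92.5% in Pax7KR libraries (exact permutation test, p = 0.2, adjusted p = 0.6). Only Pax7WT replicates 1 and 2 had a lower share, and these were the libraries that held most of the reads of *Pcdha1* and *Pcdha9*.

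Gene by gene, 46 members passed the filter, and 0 were called by edgeR's quasi-likelihood test at an adjusted p under 0.1, where 0.0% of all 17152 genes tested were called. The smallest adjusted p among members was 0.992 in edgeR. DESeq2 and limma-voom also called 0 members, while DESeq2 called 0.175% of all genes. An unadjusted p under 0.05 was reached by 4 members in edgeR (8.70%, against 4.68% of all genes tested), by 3 in DESeq2 (against 3.98% of all genes) and by 2 in limma-voom (share of all genes not given here). In edgeR, 1 of the 4 was higher in Pax7KR satellite cells (2.26% of all genes were at such a p and higher) and 3 were lower (2.43% of all genes). Of these 3, *Pcdha1* and *Pcdha9* passed the filter only through the Pax7WT libraries, so their direction was set by the filter. Without them, 2 of 44 members (4.55%) had such a p, 18 were higher and 26 lower. The number was 2 without the Pax7KR replicate 2 library and 1 without the Pax7WT replicate 2 library. Of the 46, 18 had a higher and 28 a lower mean in Pax7KR satellite cells, so that 39.1% were higher, against 49.0% of all genes. The median log2 fold change was -0.03 over the members and -0.0037 over all genes tested. The 95% interval of the fold change lay within 1 log2 unit of 0 for 41 members and within 0.5 for 29, so that for most members a doubling or its reverse lies outside the interval, while small differences do not.

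**Figure D3:**
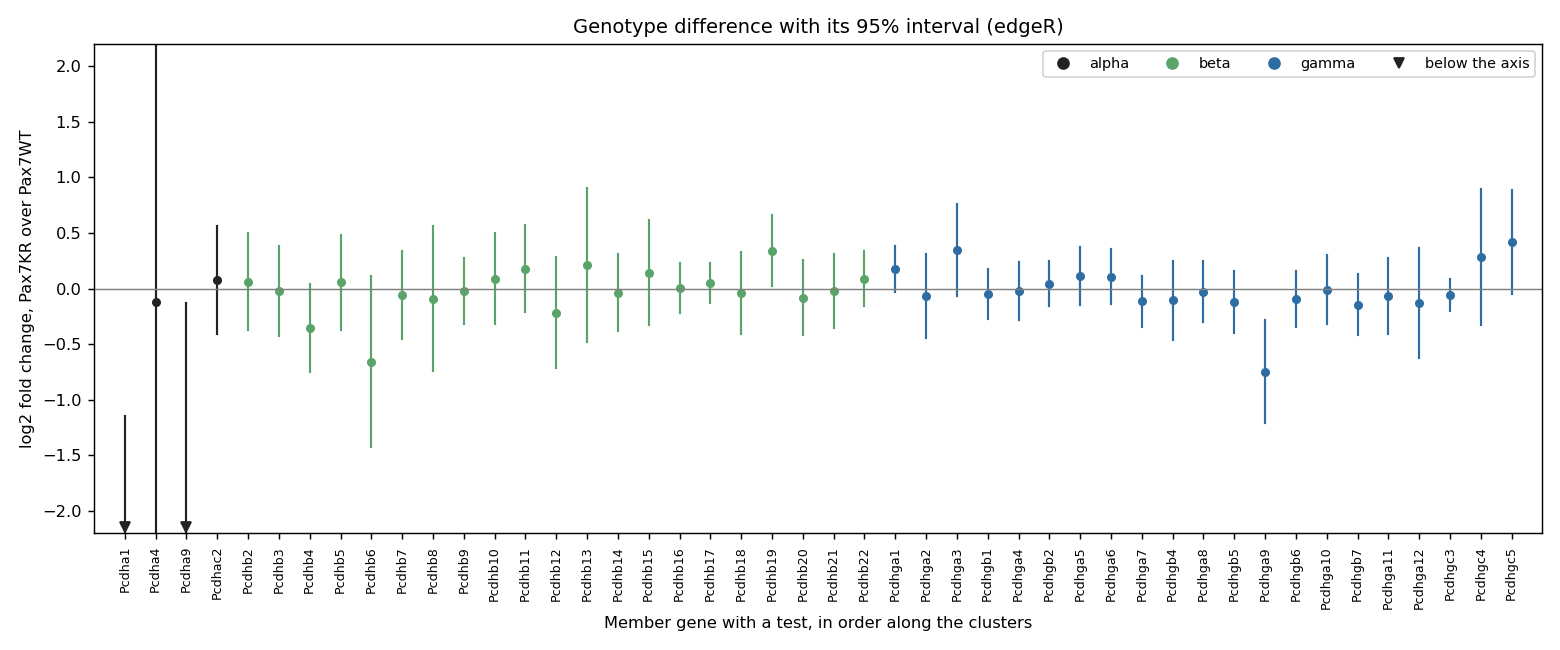
Log2 fold change of Pax7KR over Pax7WT (point) and its 95% interval (line) from edgeR for the 46 members tested, coloured by cluster. Most points lie within 0.5 of 0 and most intervals cross 0. *Pcdhga9* lies at -0.75, and the alpha genes *Pcdha1*, *Pcdha4* and *Pcdha9*, with few reads, have intervals that run beyond the axis.

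*Pcdhgc3*, the most abundant member, had the narrowest interval of the members tested, with a log2 fold change of -0.06 (95% interval -0.20 to 0.09). *Pcdhb9*, at 37.3, 31.3 and 46.04 CPM in Pax7WT and 42.0, 34.8 and 36.3 CPM in Pax7KR libraries, had a log2 fold change of -0.02 (-0.32 to 0.28). *Pcdhb17* had one of 0.05 (-0.13 to 0.23). Those of *Pcdhgb1*, *Pcdhgb2*, *Pcdhga6* and *Pcdhgb6* were -0.05, 0.05, 0.11 and -0.09, with overlapping groups in each case. *Pcdhgb7*, which had the tenth smallest p, was at -0.14 (-0.41 to 0.13), also with overlapping groups.

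*Pcdhga9* (ENSMUSG00000102440, chr18:37736936-37841870), one of the scarcer gamma A genes at 2.48 TPM, had the smallest p of the family. It was at 7.79, 8.41 and 6.82 CPM in Pax7WT and at 5.95, 3.73 and 4.02 CPM in Pax7KR libraries. Every Pax7KR library was below every Pax7WT library. The log2 fold change was -0.75 (SE 0.21, 95% interval -1.21 to -0.29) and the adjusted p was 0.992 in edgeR's quasi-likelihood test, so the difference did not pass the correction over all genes. Over the alternatives the adjusted p ran from 0.0956 to 1. The lowest value came from the edgeR fit without the filter, which called 0.652% of all genes and *Pcdhga9* as the only member. Without the Pax7KR replicate 2 library the log2 fold change was -0.62. On the TPM scale it was at 3.18, 3.22 and 2.47 in Pax7WT and at 2.50, 1.79 and 1.69 in Pax7KR libraries, so that the groups overlapped there.

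The sequence of *Pcdhga9* shares 41.3% of its 31-base sequences with other genes, most of them in the constant exons, and 8.07% over its first exon. The gene whose first exon is closest is *Pcdhga8*, with 7.14% of the sequences of the *Pcdhga9* first exon, and *Pcdhga8*, chosen for that reason after values were seen, was at 11.4, 11.7 and 12.8 CPM in Pax7WT and at 12.4, 12.2 and 10.5 CPM in Pax7KR libraries. These groups overlapped, with a log2 fold change of -0.03. The reads of *Pcdhga9* were divided by salmon between a protein-coding transcript of 4 exons (ENSMUST00000091935) and a retained-intron transcript (ENSMUST00000194814). The protein-coding transcript was at 5.51, 6.70 and 6.39 CPM in Pax7WT and at 4.55, 1.72 and 2.67 CPM in Pax7KR libraries. The retained-intron transcript was at 2.33, 1.69 and 0.44 CPM in Pax7WT and at 1.46, 2.01 and 1.31 CPM in Pax7KR libraries. The groups were apart for the former and overlapped for the latter. The log2 fold change of the former was -1.06 with an SE of 0.39, and its adjusted p over 54853 transcripts was 1.00 in edgeR.

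Groups also did not overlap in CPM for *Pcdhb19*, *Pcdhga1* and *Pcdhgc5*, all higher in Pax7KR satellite cells. With *Pcdhga9* this made 4 of the 46 members (8.70%), against 10.3% of all genes tested. By direction, 3 members were higher, against 5.14% of all genes tested, and 1 was lower, against 5.19%. *Pcdhb19*, a beta gene whose reads were whole numbers in all libraries, was at 9.15, 8.01 and 8.04 CPM in Pax7WT and at 9.75, 12.1 and 10.1 CPM in Pax7KR libraries. Its log2 fold change was 0.34 (SE 0.15, 95% interval 0.02 to 0.66) with an adjusted p of 0.992 in edgeR, and its unadjusted p was under 0.05. It fell to 0.24 without the Pax7KR replicate 2 library, which was the highest of the group. *Pcdhga1* was at 19.7, 18.6 and 19.9 CPM in Pax7WT and at 21.4, 22.6 and 21.9 CPM in Pax7KR libraries, a log2 fold change of 0.18 (-0.03 to 0.39), and its groups overlapped in TPM. *Pcdhgc5*, reported to associate with inhibitory synapses, was at 3.49, 4.63 and 4.29 CPM in Pax7WT and at 6.38, 4.86 and 5.29 CPM in Pax7KR libraries, a log2 fold change of 0.42 (-0.05 to 0.88). The intervals of *Pcdhga1* and *Pcdhgc5* thus include 0, and the adjusted p of both was 0.992 in edgeR.

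For several other members, a single library carried much of the difference. *Pcdhb6* was at 1.76, 2.43 and 4.43 CPM in Pax7WT and at 1.71, 1.80 and 1.94 CPM in Pax7KR libraries. Its log2 fold change was -0.66, and it was -0.20 without the Pax7WT replicate 3 library, which held the high value. The groups overlapped in CPM but not in TPM, where it was at 1.13, 1.69 and 2.75 in Pax7WT and at 0.82, 0.87 and 0.90 in Pax7KR libraries. That gap in TPM rested on a short transcript of 681 bases. It was given 3.31, 3.91 and 5.59 reads in Pax7WT and 0 in each Pax7KR library. The main transcript overlapped in TPM, at 0.74, 1.00 and 1.88 in Pax7WT and at 0.82, 0.87 and 0.90 in Pax7KR libraries. *Pcdhb4* was at 7.64, 10.3 and 12.6 CPM in Pax7WT and at 7.74, 8.58 and 7.47 CPM in Pax7KR libraries, with a log2 fold change of -0.35 that became -0.17 without the same library. *Pcdhga3* was at 10.2, 9.14 and 5.94 CPM in Pax7WT and at 11.9, 10.9 and 9.45 CPM in Pax7KR libraries, with a log2 fold change of 0.35 that became 0.15 without that library. *Pcdhgc4* was at 4.56, 3.22 and 2.73 CPM in Pax7WT and at 3.89, 3.22 and 5.77 CPM in Pax7KR libraries, with a log2 fold change of 0.28 (-0.33 to 0.90) and overlapping groups. It was 0.02 without the Pax7KR replicate 3 library, which held the high value. None of these was called.

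**Figure D4:**
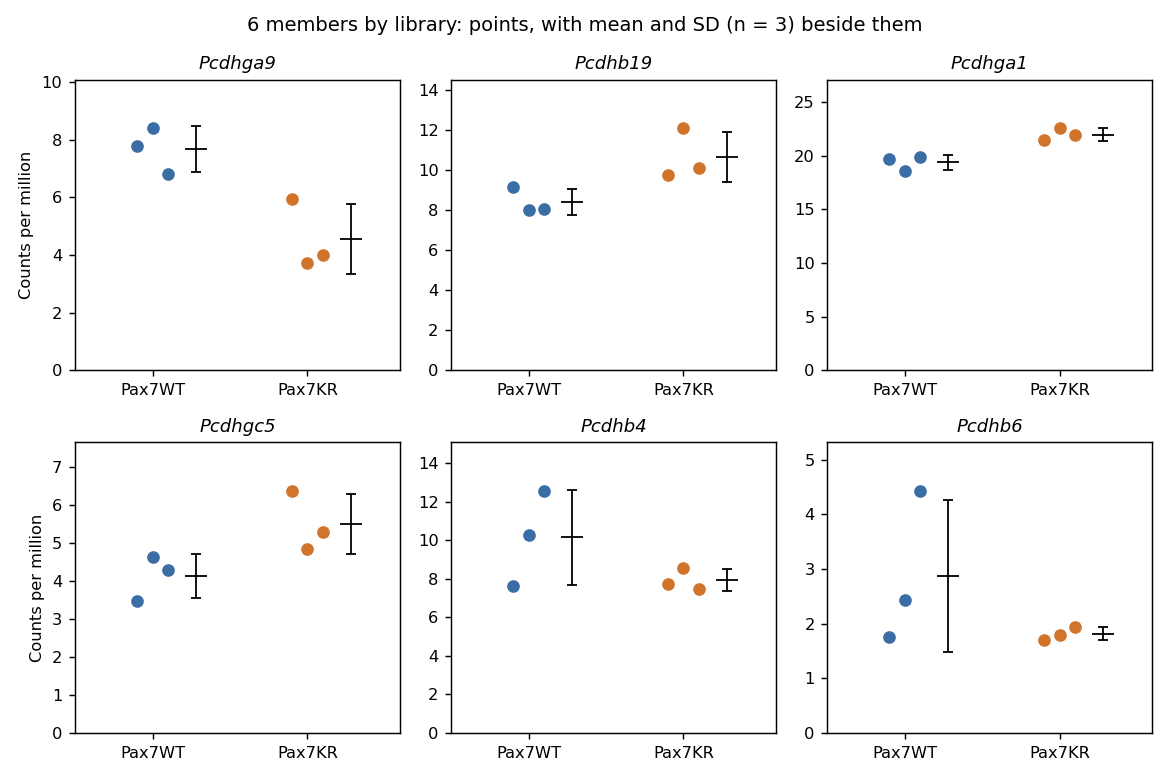
CPM of 6 members in each library (points; blue Pax7WT, orange Pax7KR), with the mean and SD of each group (n = 3) beside them and axes that start at 0. In *Pcdhga9*, *Pcdhb19*, *Pcdhga1* and *Pcdhgc5* the points of the groups are apart, while in *Pcdhb4* and *Pcdhb6* the Pax7WT replicate 3 library lies highest and the groups overlap.

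The alternate alpha genes were close to the limit of what these libraries could detect. *Pcdha1* had 8.67, 7.57 and 0 reads in the Pax7WT libraries and 0 reads in the 3 Pax7KR libraries. *Pcdha9* had 13.5, 9.41 and 0 reads in Pax7WT and 1.77, 0 and 0 reads in Pax7KR libraries. Both passed the filter only through the Pax7WT libraries, which set their direction, so no fold change is given for them. Their unadjusted p was under 0.05, and the adjusted p was 0.992 for both in edgeR. In both genes the Pax7WT replicate 3 library was at 0 like the Pax7KR libraries, so the groups overlapped. Most of the sequence of these genes is shared with other genes (64.2% for *Pcdha1*), and the estimated reads were not whole numbers. *Pcdhac2*, with 98.6 to 230 reads per library, was at 8.45, 5.64 and 4.82 CPM in Pax7WT and at 6.43, 7.83 and 5.81 CPM in Pax7KR libraries, with a log2 fold change of 0.08 (-0.41 to 0.56).

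Members were next examined by transcript. The 57 members have 87 annotated transcripts, of which 16 were at 0 reads in all libraries and 60 passed the filter. Of these 60, 0 were called by edgeR (0.0% of all transcripts tested), and 1 reached an unadjusted p under 0.05 (1.67%, against 4.01% of all transcripts), the protein-coding transcript of *Pcdhga9*. DESeq2 also called 0, with 2 at an unadjusted p under 0.05. There were 26 with a higher and 34 with a lower mean in Pax7KR satellite cells. The next smallest p-values belonged to the transcripts of *Pcdha1*, which had reads in Pax7WT libraries only, and *Pcdhb19* (log2 fold change 0.34), and to the spliced transcript of *Pcdhga1* (0.46), each with an adjusted p of 1.00 in edgeR.

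The share of reads given to protein-coding transcripts moved by over 20 percentage points between libraries in 4 members, all of them gamma genes. The protein-coding transcript took 0% to 77.9% of the reads of *Pcdhgc4*, 0% to 69.7% for *Pcdhga12*, 0% to 50.7% for *Pcdhgc5* and 45.7% to 93.9% for *Pcdhga9*. *Pcdhga12* as a whole stayed between 3.26 and 3.99 CPM, whereas the total of *Pcdhga9* ran from 3.73 to 8.41 CPM. In *Pcdhgc4* the protein-coding transcript was at 0 reads in Pax7WT replicates 2 and 3 and had 94.8 reads in Pax7KR replicate 3. Libraries of both genotypes lay at the low and the high ends in *Pcdhgc5*. For *Pcdhgc3*, by contrast, the leading transcript held 97.4% to 98.2% in every library. The estimate behind these divisions carries an error that the test over libraries does not see. Transcript values of the scarce gamma genes, and of *Pcdhga1* and *Pcdhga7*, are therefore less certain than their gene totals.

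**Figure D5:**
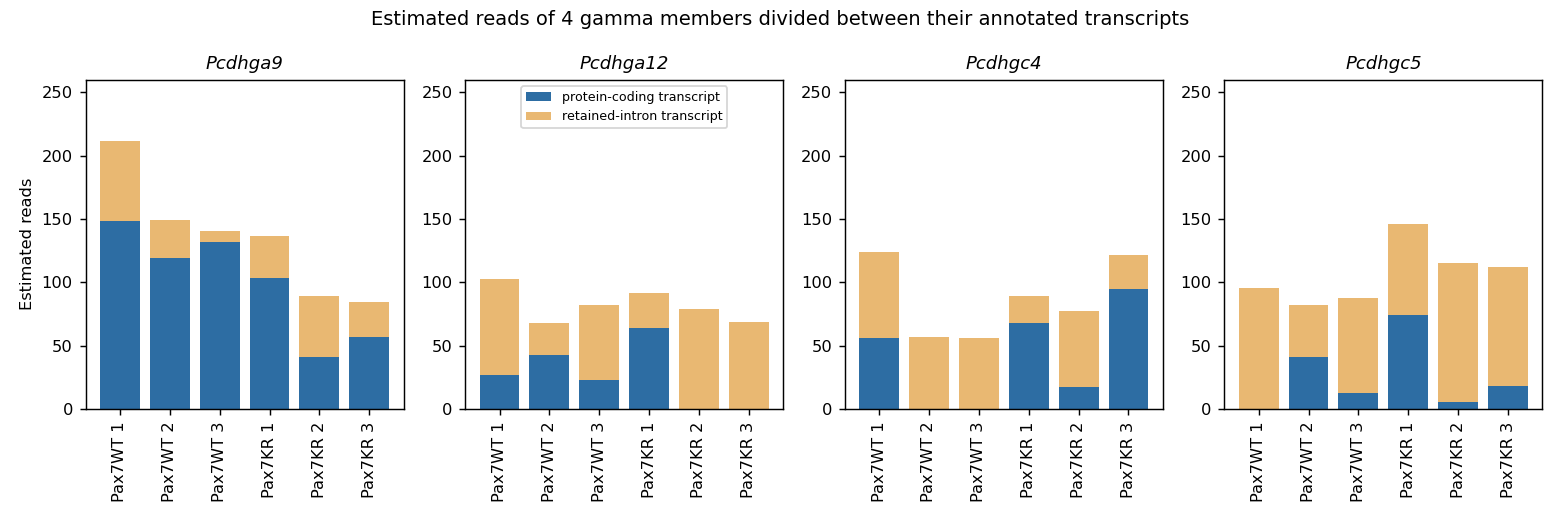
Estimated reads of 4 gamma members in each library (not scaled for depth), divided between the protein-coding transcript (blue) and the retained-intron transcript (yellow). The blue part ranges from 0 to 94.8 reads in *Pcdhgc4* and is absent in 2 Pax7KR libraries in *Pcdhga12*, while the total of *Pcdhga12* stays between 3.26 and 3.99 CPM.

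Genes known to act on or with the clusters, neighbours on the chromosome and non-clustered protocadherins were measured in the same fit, of which 75 of 76 were tested and 0 were called, or reached an unadjusted p under 0.05, by edgeR. By DESeq2, 0 were called and 2 had an unadjusted p under 0.05, against 3.98% of all genes. Of 13 genes of CTCF, cohesin and its loaders, which fold the clusters and select promoters, 6 were higher and 7 lower in Pax7KR satellite cells, with a median log2 fold change of -0.02. The cohesin subunits *Smc1a* (129.5 ± 7.29 TPM), *Rad21* (100.5 ± 5.60 TPM) and *Stag2* (89.8 ± 8.33 TPM; SD, n = 6) led this list, at log2 fold changes of 0.01, 0.02 and 0.01. The smallest p-values of the list belonged to *Esco1*, which acetylates cohesin, at -0.11, and *Stag1*, at -0.08. Of 13 repressors and DNA methylation genes, 9 were higher and 4 lower (median 0.02). *Trim28*, a corepressor, was at 180 ± 16.3 TPM (SD, n = 6) and the 5-methylcytosine dioxygenase *Tet2* at 40.7 TPM, with log2 fold changes of 0.01 and -0.12. *Tet1*, the other gene of small p, was at -0.11.

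Downstream of the proteins, 17 signalling partners (focal adhesion kinases, the WAVE complex, Wnt components) split into 9 higher and 8 lower, with a median of 0.0015. Groups did not overlap for 4 of the 17, against 10.3% of all genes tested. *Ctnnb1*, which encodes beta-catenin, was at 408 ± 26.0 TPM (SD, n = 6), the GTPase *Rac1* at 267 TPM and the WAVE subunit *Brk1* at 124 TPM, all with log2 fold changes between -0.02 and 0.03. *Marcks*, a membrane-bound substrate of protein kinase C that takes part in gamma protocadherin signalling, was at -0.17, and the kinase *Ptk2b* at 0.69 with a level of 0.613 TPM. Of 8 genes of shedding and gamma-secretase, which cleave the proteins, 7 were higher and 1 lower (median 0.05). The protease subunits *Ncstn* (109 TPM) and *Psenen* (88.3 TPM) were at 0.01 and 0.03, the sheddase *Adam10* was at 0.09 and *Aph1b*, the lower one, at -0.19. None of these differences passed the correction.

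Of 13 neighbours of the clusters on the chromosome, 6 were higher and 7 lower (median -0.02). *Ik* (160 ± 8.99 TPM), *Ndufa2* (99.3 TPM) and *Zmat2* (74.1 TPM) were the most abundant, at log2 fold changes of 0.07, 0.02 and 0.04. *Taf7*, which lies between the beta and gamma clusters, was at 8.62 TPM and -0.22. Of the non-clustered protocadherins, which are encoded elsewhere in the genome, 11 of 12 were tested, with 3 higher and 8 lower in Pax7KR satellite cells and a median of -0.15. They summed to 370, 285 and 361 CPM in Pax7WT and to 224, 227 and 306 CPM in Pax7KR libraries. The most abundant, *Pcdh18* (44.9 ± 15.6 TPM) and *Pcdh7* (30.96 ± 3.27 TPM; SD, n = 6), were below *Pcdhgc3* and above *Pcdhb9*, and *Pcdh9* was at 5.07 TPM. Whether the clustered and the non-clustered members differ in their response was not tested.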

How the data were processed

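Gene expression was measured by RNA-sequencing of freshly isolated satellite cells, with 3 Pax7WT and 3 Pax7KR samples grouped by their labels. The authors quantified paired reads of 150 bases with Salmon (version 1.3.0) against GENCODE transcripts of GRCm38 with genomic decoys, and deposited an estimated count and a TPM value for each transcript, with no further normalization of the counts. Effective transcript lengths from the same deposited files served only for a length offset. The strand setting of the quantification is not given in the sources used here. Their own DESeq2 comparison, also deposited, holds fold changes and p-values and was not used.

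Genes and coordinates come from a GENCODE release before the one the authors used, on the same build, which matched 139791 of 140992 transcripts, and the unmatched held 0.592% to 0.634% of reads. Its gene names include 2 genes called *Pcdha11*, each counted. Estimated counts were summed per gene and rounded. Levels of genes are summed TPM, and comparisons of genotypes use CPM with TMM library sizes.

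A gene or transcript needed at least 5 reads in at least 2 libraries. The 17152 genes and 54853 transcripts that remained were compared in edgeR (version 4.0.16; quasi-likelihood, robust, genotype only), with Benjamini-Hochberg adjustment over all of them and a cut-off of 0.1. Sums and shares were tested with exact permutation tests in scipy (version 1.17.1). DESeq2 (version 1.42.0), limma-voom (limma version 3.58.1), other normalizations, filters and offsets, and leaving out each library were alternatives, together with the 2 fits named as added later. The edgeR and DESeq2 steps were tested on simulated data. Coordinates count from 1. The limit given for genes at 0 reads covers counting error only.

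Named genes are all C-type members, the 8 with the highest mean TPM, the 10 with the smallest p, any called in a fit, those at 0 reads, those whose groups do not overlap, and from the other lists the 3 highest by TPM and the 2 with the smallest p. Some genes that this rule names in those lists are not reported here. Members and lists were chosen with earlier results of these data known. Markers of endothelial cells, immune cells, tenocytes, fibro-adipogenic progenitors, myofibres, smooth muscle and pericytes were measured too, with 0 genes called by edgeR in each. In Pax7KR satellite cells, 9 endothelial markers were higher and 1 lower (median log2 fold change 0.39). Of the smooth muscle and pericyte markers, 0 were higher and 8 lower (-0.14). Higher and lower numbered 6 and 3 for immune, 2 and 4 for tenocyte, 4 and 6 for fibro-adipogenic and 2 and 6 for myofibre markers. The cause was not tested. An unadjusted p under 0.05 in edgeR was reached by 3 immune genes and 0 of the others, against 4.68% of all genes tested. Of 11 Schwann and glial markers tested, 0 were called and 1 had such a p (*Mal*, log2 fold change -0.42). In that list 3 were higher and 8 lower in Pax7KR satellite cells. The neighbours *Slc25a2* and *Harsb*, were not analysed here.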

Additional observations from a re-analysis of the deposited data

How the results depend on the processing

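No member was called under any alternative except the edgeR fit without a filter on low counts, which called 1, *Pcdhga9* (log2 fold change -0.75, adjusted p = 0.0956), and which also called 157 genes in all. The number of members with an unadjusted p under 0.05 was 2 with at least 10 reads in every library, 2 in limma-voom and 8 without the filter, and ran from 1 to 6 with single libraries left out, when 0 were called each time. Members higher in Pax7KR satellite cells then numbered 19 to 25, and the median log2 fold change ran from -0.0298 to 0.0216, with positive values without Pax7KR replicate 3 and without Pax7WT replicate 3 (0.0047). For member transcripts the number at an unadjusted p under 0.05 was 2 in DESeq2 and 0 to 4 with libraries left out, and for the 75 regulator, partner, neighbour and non-clustered genes 2 and 0 to 4. Except for DESeq2 on genes, the share of all genes or transcripts at such a p is not given here for the alternatives. Their counts thus have no background beside them. The fit without the filter tested 24068 genes, so its count cannot be set against that of the main fit. Of 317 log2 fold changes of named members under the alternatives, 306 kept their direction and their side of the threshold, and 10 changed sign. *Pcdhgc4*, otherwise at 0.28, was at -0.0085 with the transcript length as offset and at -0.0074 in DESeq2 with that offset, which was added after seeing the data. Left-out libraries moved *Pcdhac2* between -0.0831 and 0.36 (-0.05 without Pax7KR replicate 2), *Pcdhb9* between -0.14 and 0.13 (0.03 and 0.0064 without Pax7KR replicates 2 and 3), *Pcdhgb1* between -0.151 and 0.0336, *Pcdhgb2* between -0.0030 and 0.102, and *Pcdhgb6* between -0.190 and 0.0180. The cause of these changes was not tested.

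With TPM in place of reads, the log2 differences of the sums were 0.0311 for alpha, 0.0384 for beta, 0.0206 for gamma, 0.0060 for the C type and 0.0444 for gamma A and B, and with the total reads of the library as scale 0.0093, 0.0291 and 0.0113 for alpha, beta and gamma A and B. With libraries left out they ran from -0.26 to 0.25 for alpha and from -0.0266 to 0.0322 for beta. The difference in the share held by *Pcdhb9* was 0.25 percentage points on the TPM scale and ran from -1.40 to 1.17 with libraries left out. In an edgeR fit with the replicate number as a block, 0 members were called, 3 had an unadjusted p under 0.05 and 19 were higher, against 0 transcripts at an unadjusted p under 0.05. Same-numbered samples correlated at 0.02, 0.06 and -0.07 in their deviations from the group means, so the numbers were not taken to pair the samples. Depth limits the alternate alpha genes, of which all had 18.0 reads or fewer per library.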

Other observations

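*Pcdhgb8* (ENSMUSG00000103081), the gamma gene annotated as a polymorphic pseudogene and therefore not a member, was at 3.97, 3.78 and 3.60 CPM in Pax7WT and at 2.40, 2.81 and 2.98 CPM in Pax7KR libraries. Every Pax7KR library was below every Pax7WT library. The log2 fold change was -0.47 with an SE of 0.24, and the adjusted p was 0.992 in edgeR. Like *Pcdhga9* it lies in the 3′ part of the alternate gamma genes, but the alternate genes that lie between them had overlapping groups (*Pcdhgb6*, *Pcdhga10*, *Pcdhgb7* and *Pcdhga11*, with log2 fold changes of -0.09, -0.01, -0.14 and -0.07). *Pcdhga10* and *Pcdhga11* fall outside the rule for named genes, and were picked with their values in view.

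The annotated loci *Gm37013*, *Gm37388* and *Gm42416*, which span the alpha to gamma clusters, had 0 reads in all 6 libraries, and *Gm38182* had 0 to 14.03 reads. Along the clusters, TPM and order had a Spearman correlation of 0.35 over the 22 beta, -0.37 over the 12 gamma A and -0.83 over the 6 gamma B genes. These are descriptions over genes that share libraries and sequence, and for gamma B the share of 31-base sequences found in other genes was correlated with TPM as well (0.77).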
